A study of Mus musculus with 7 samples.

Results

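The genes described here are 42 mouse genes of glucose breakdown, pyruvate use and the response to low oxygen, out of 53465 genes in the deposited table. They were chosen by name: a row was taken when its gene identifier mapped to 1 of the 42 listed symbols. No measured value entered this rule, but the symbols were listed with earlier results of these data known. All 42 were found and all 42 passed the filter on low counts, which left 15645 genes for testing. RNA came from whole tumors of EMT6, a mouse mammary carcinoma line. Each female Balb/c mouse, aged 6 to 8 weeks, received 500000 cells in a mammary fat pad. The 3 EMT6-P (parental) tumors received an isotype control antibody and the 3 EMT6-PTR tumors received αPD-L1, each at 250 μg per mouse every 3 days up to the institutional endpoint. EMT6-PTR is a variant taken from αPD-L1-treated tumors that had resumed growth after a delay, and the labels write PDR for it. A seventh library came from 1 metastasis of the resistant variant, also under αPD-L1, for which the labels give neither an organ nor a replicate number. The labels name no genetic change in any group. EMT6-P and EMT6-PTR differ in both the variant and the antibody, and these cannot be told apart. The study calls its replicates technical where it does not specify otherwise and specifies nothing for these RNA samples, so the 3 samples of a group may not stand for 3 separate animals.

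Glycolysis takes up glucose through membrane transporters and converts it in the cytosol to pyruvate, which is either reduced to lactate and exported or carried into mitochondria and oxidised by the pyruvate dehydrogenase complex. Pyruvate dehydrogenase kinases switch that complex off. When oxygen is scarce, prolyl hydroxylases no longer mark HIF1A for destruction, and the stabilised factor binds regulatory sites, often with the core letters ACGTG, of many genes, including most glycolytic enzymes, glucose transporters and some of the kinases. Carcinomas commonly run glycolysis at a high rate, and hypoxia-induced genes are widely used as readouts of poorly perfused tumor tissue.

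The letters ACGTG were searched on both strands in the 250 bases before each RefSeq transcription start (GRCm38.p6), where the palindrome CACGTG counts on both strands. Of the 40 members with such a window, 22 (55.0%) held the letters in at least 1 window, against 18.49% of 27025 symbols in the table. By window, these letters stood in 45.45% of 55 member windows and in 16.57% of all 32851 windows, and 7 member windows held CACGTG. No window was given for Slc2a3 or Ndrg1. Sequences are shown for 4 genes that held the letters: the members with an unadjusted p under 0.05 (Pfkfb3 and Pdk2), the main glucose transporter (Slc2a1) and a hypoxia-induced gene (Bnip3). Other members discussed below, among them Pdk4, Ldhb, Pdha1 and Pdk1, held no match in any window given. Capitals mark ACGTG, or CACGT where it lies on the other strand. For Pdk2 (chr11:95041372-95041621, minus strand) and Bnip3 (chr7:138909520-138909756, minus strand) the stretch lies before the gene as GENCODE annotates it. For Pfkfb3 (chr2:11553973-11554001, minus strand) and Slc2a1 (chr4:119108697-119108725, plus strand) only the match and 12 bases on either side are given, because the window runs into the first exon of a GENCODE transcript. A match is a description of the letters and not evidence of binding.
Pfkfb3: ctccgcgccgtgACGTGccaagctgtgac
Pdk2: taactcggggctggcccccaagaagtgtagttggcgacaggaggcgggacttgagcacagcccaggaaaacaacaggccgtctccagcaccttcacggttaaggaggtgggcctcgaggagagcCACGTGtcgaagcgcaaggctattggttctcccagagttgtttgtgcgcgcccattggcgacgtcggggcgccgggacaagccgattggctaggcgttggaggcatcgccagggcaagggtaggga
Slc2a1: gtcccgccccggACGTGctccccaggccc
Bnip3: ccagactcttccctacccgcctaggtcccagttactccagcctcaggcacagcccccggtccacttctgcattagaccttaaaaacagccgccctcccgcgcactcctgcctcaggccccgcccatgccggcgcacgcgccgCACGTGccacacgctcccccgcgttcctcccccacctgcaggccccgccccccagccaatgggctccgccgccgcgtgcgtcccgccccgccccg

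The libraries held 20430110 to 25213472 estimated counts each, and the 42 genes took 1.37% to 2.02% of them. Expression is given as CPM, read counts relative to library size, scaled by the upper-quartile method. The gene CT010467.1 alone took 13.8% of the counts of EMT6-PTR replicate 2, and 0.433% to 1.35% of those of the other libraries. Marker lists set some libraries apart. Skeletal muscle markers summed to 4898 CPM in EMT6-PTR replicate 1, with 8 of 8 highest there, against 745 and 423 CPM in EMT6-P replicates 1 and 3 and 3.87 to 13.6 CPM in the other 3 tumors. EMT6-PTR replicate 3 had 597 CPM of carcinoma epithelium markers against 2099 to 2347 CPM in the other 5 tumors, with 3 of 6 lowest there (Krt8, Krt18 and Cdh1) and the sum carried by Krt8 and Krt18. Its 6 proliferation markers were all lowest and summed to 106 CPM against 740 CPM or more in the other 5 tumors. Its fibroblast markers summed to 12359 CPM against 4931 to 7466 CPM, with 5 of 6 highest there. Col1a1 was not, at 2755 CPM against 3719 CPM in EMT6-PTR replicate 2. T cell markers were low but highest in EMT6-PTR replicate 2, at 15.1 CPM in sum against 3.48 to 5.26 CPM in the other 5 tumors. Erythroid markers also summed highest there, at 379 CPM against 30.9 to 197 CPM. In the metastasis, 6 of 6 lung epithelium markers lay above all primary tumors, at 7957 CPM in sum against 4.26 to 27.1 CPM. All 6 neutrophil markers also lay above, at 2931 CPM against 25.0 to 58.6 CPM, and proliferation markers summed to 111 CPM. In bulk tissue, fewer cells of a type and less RNA per cell cannot be told apart.

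No member differed between EMT6-PTR and EMT6-P tumors at an adjusted p under 0.05. The adjusted p of the members ran from 0.421 to 0.996 in edgeR's quasi-likelihood test (n = 3 per group), and the share of all tested genes called was 0%. Without adjustment, 2 members had a p under 0.05 and were higher in EMT6-PTR, Pfkfb3 and Pdk2, against 5.84% of all genes tested, and 0 were lower, against 5.57%. By size alone, 3 members were at least 2-fold higher (Pdk4, Pdk2 and Ldhb; 6.27% of all genes) and 0 at least 2-fold lower (1.29%). All 3 EMT6-PTR tumors lay above all 3 EMT6-P tumors for 2 members, Pfkfb3 and Pdha1 (9.52% of all genes), and below them for 0 (11.8%). The median log2 fold change was 0.03 over the 42 members and 0.03 over all genes tested, with 26 members above 0 and 16 below. Of all 15645 genes tested, 8188 lay above 0 and 7457 below. The summed level of the 42 genes was 18309 ± 2914 CPM in EMT6-P and 16951 ± 3812 CPM in EMT6-PTR tumors (SD, n = 3 each). The plot of log2 fold changes by gene shows the largest departures from 0 among the pyruvate dehydrogenase kinases and Ldhb, each with a wide standard error (SE).

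**Figure D1:**
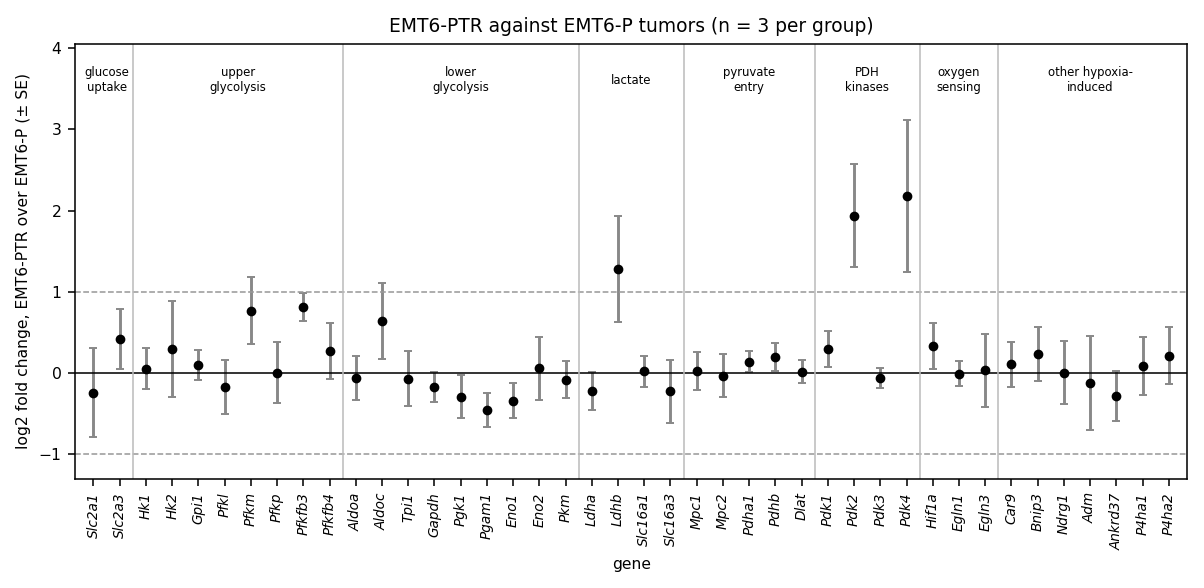
Log2 fold change of EMT6-PTR over EMT6-P tumors (vertical axis, n = 3 per group) for each of the 42 genes (horizontal axis), grouped by role. Points are edgeR estimates, bars are ± 1 SE, and dashed lines mark 2-fold. Only Pdk4 (2.18), Pdk2 (1.93) and Ldhb (1.28) lie beyond 2-fold, and Pfkfb3 (0.81) has the shortest bar among the genes above 0.5.

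Glucose uptake was represented by a pair of transporters. Slc2a1, which encodes GLUT1, the basal glucose transporter of most dividing cells, stood at 330, 546 and 258 CPM in EMT6-P replicates 1 to 3. In EMT6-PTR it stood at 308, 533 and 118 CPM. Replicate 2 was the highest tumor of each group and EMT6-PTR replicate 3 the lowest of all 6, so that the range within EMT6-PTR was 4.51-fold and the group difference small beside it (log2 fold change -0.24, SE 0.55). Slc2a3 encodes GLUT3, a high-affinity transporter of neurons and leukocytes. Its level was 5.79, 10.9 and 5.55 CPM in EMT6-P and 12.3, 10.8 and 6.64 CPM in EMT6-PTR tumors. The groups overlapped (log2 fold change 0.42, SE 0.37, adjusted p = 0.646 in edgeR's test). Per kilobase of exon, Slc2a3 made up 0.84% to 1.03% of the summed level of both transporters in EMT6-P and 0.97% to 2.64% in EMT6-PTR tumors.

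In upper glycolysis, Pfkfb3 was the member with the smallest p. It encodes a bifunctional enzyme that makes the sugar bisphosphate activating phosphofructokinase, and so sets the pace of glycolysis. Its level was 24.4, 30.6 and 22.0 CPM in the EMT6-P tumors (mean 25.7 ± 4.42, SD, n = 3) and 47.1, 49.4 and 39.0 CPM in the EMT6-PTR tumors (mean 45.2 ± 5.45). Every EMT6-PTR tumor lay above every EMT6-P tumor. The log2 fold change was 0.81 (SE 0.18, unadjusted p = 0.0029, adjusted p = 0.421 in edgeR's quasi-likelihood test), which did not pass the threshold. Its log2 fold change stayed between 0.72 and 0.95 when any 1 tumor was left out. With DESeq2, Pfkfb3 had an adjusted p of 0.0109 and was the only member called, where 0.882% of all genes were called higher. Over the other alternatives its adjusted p ran from 0.125 to 0.865.

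The other 7 genes of this step group had adjusted p-values of 0.492 or more in edgeR's test. The log2 fold changes of the 8 ran from -0.17 to 0.81 (median 0.18), and 7 lay above 0. Pfkm, the muscle-type phosphofructokinase, stood at 56.8, 43.2 and 54.6 CPM in EMT6-P and 141, 43.7 and 77.7 CPM in EMT6-PTR tumors. Only EMT6-PTR replicates 1 and 3 exceeded the EMT6-P range, and without replicate 1, the tumor with 4898 CPM of muscle markers, the log2 fold change was 0.23 in place of 0.77. The part of muscle tissue in this value was not tested. Hk2, the hexokinase induced in many carcinomas, stood at 79.2, 111 and 66.1 CPM in EMT6-P and at 150, 138 and 27.6 CPM in EMT6-PTR tumors. It was thus highest in EMT6-PTR replicates 1 and 2 and lowest in replicate 3, where the level was 5.44-fold below that of replicate 1. Hk1, Pfkl and Pfkp, the widely expressed hexokinase and the liver- and platelet-type phosphofructokinases, were likewise lowest of the 6 tumors in EMT6-PTR replicate 3, at 146, 150 and 107 CPM. Gpi1, the isomerase between them, ran only from 533 to 723 CPM over all 6 tumors. Pfkfb4, a sister enzyme of Pfkfb3, had 41.9 CPM in EMT6-PTR replicate 2 and 16.8 to 28.3 CPM in the other tumors.

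Lower glycolysis covers the 9 genes from aldolase to pyruvate kinase, and 7 of them had a log2 fold change below 0 (median -0.08). Pgam1, phosphoglycerate mutase, had the lowest value of all 42 genes at -0.46 (SE 0.21, adjusted p = 0.454 in edgeR's test), with 1553, 1566 and 1311 CPM in EMT6-P and 1028, 1342 and 856 CPM in EMT6-PTR tumors. Its groups overlapped through EMT6-PTR replicate 2 alone. Pkm, which encodes pyruvate kinase and was the gene with the most reads, ran from 2765 to 4054 CPM over the 6 tumors with a log2 fold change of -0.08. Aldoa, Tpi1, Gapdh, Pgk1, Eno1 and Eno2 had log2 fold changes from -0.34 (Eno1) to 0.06 (Eno2). For 7 of the 9 genes, all but Aldoc and Pkm, EMT6-PTR replicate 3 was the lowest of the 6 tumors. Aldoc, the brain-type aldolase, went the other way in that tumor. It stood at 44.5, 45.6 and 41.6 CPM in EMT6-P and at 30.5, 54.4 and 121 CPM in EMT6-PTR tumors, with a log2 fold change of 0.64 (SE 0.46) that became -0.05 without replicate 3.

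Among the genes of lactate formation and export, Ldha, which encodes the main subunit of lactate dehydrogenase, ran from 925 to 1581 CPM over the 6 tumors, with a log2 fold change of -0.22 (SE 0.24). Ldhb encodes the subunit that favours the return of lactate to pyruvate and is abundant in heart. It stood at 3.55, 2.53 and 4.28 CPM in EMT6-P and at 17.1, 3.13 and 4.88 CPM in EMT6-PTR tumors, and only replicate 1 stood clearly above the EMT6-P range. Its log2 fold change of 1.28 (SE 0.66, adjusted p = 0.482 in edgeR's test) became 0.21 without that replicate. The exporters Slc16a1 (MCT1) and Slc16a3 (MCT4, the hypoxia-induced form) had log2 fold changes of 0.02 and -0.22. Slc16a3 stood at 150 CPM in EMT6-PTR replicate 3 and at 324 to 441 CPM in the other 5 tumors.

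For the entry of pyruvate into mitochondria, the mitochondrial carriers Mpc1 and Mpc2 and the pyruvate dehydrogenase subunits Pdha1, Pdhb and Dlat had log2 fold changes from -0.03 to 0.20 with a median of 0.03, the narrowest range of the 8 role groups. Pdha1 stood at 159, 161 and 160 CPM in EMT6-P and at 175, 162 and 192 CPM in EMT6-PTR tumors. The groups did not overlap, but the log2 fold change was 0.14 (SE 0.13, adjusted p = 0.649 in edgeR's test) and replicate 2 lay barely above the highest EMT6-P tumor. Pdhb, with the largest log2 fold change of the group at 0.20 (SE 0.17), stood at 68.9, 64.2 and 71.5 CPM in EMT6-P and 61.2, 86.9 and 87.3 CPM in EMT6-PTR tumors. Over the 6 tumors Mpc1 ran from 39.0 to 70.8 CPM, Mpc2 from 24.4 to 46.4 CPM and Dlat from 62.9 to 82.6 CPM. All 5 genes peaked in EMT6-PTR replicate 3 among the 6 tumors, which was the highest tumor for 5127 of all 15645 genes tested. It was the lowest for 4 of 8 upper glycolysis genes, 7 of 9 lower glycolysis genes and 3 of 4 lactate genes. Over all genes tested it was the lowest for 34.5%. Of 16 tricarboxylic acid cycle genes, it was the highest for 2 and the lowest for 9.

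The 4 kinases that inactivate pyruvate dehydrogenase had log2 fold changes from -0.06 to 2.18 with a median of 1.12. Pdk2 stood at 6.67, 4.59 and 6.49 CPM in EMT6-P and at 23.9, 5.75 and 38.1 CPM in EMT6-PTR tumors. Replicates 1 and 3 lay well above the EMT6-P range and replicate 2 inside it, and the log2 fold change was 1.93 (SE 0.63, unadjusted p = 0.020, adjusted p = 0.427 in edgeR's test). Without EMT6-PTR replicate 3 it was 1.33 and without replicate 2 it was 2.39. The unadjusted p was no longer under 0.05 with limma-voom or without EMT6-P replicate 2, EMT6-P replicate 3 or EMT6-PTR replicate 3. Pdk4, the kinase induced by fasting and fatty acids and abundant in muscle, stood at 14.0, 2.76 and 5.97 CPM in EMT6-P and at 78.2, 13.0 and 11.5 CPM in EMT6-PTR tumors. Replicate 1 was by far the highest, and the log2 fold change of 2.18 (SE 0.94, adjusted p = 0.443 in edgeR's test) became 0.69 without it. In EMT6-P the same gene ran in the order of the muscle markers, which summed to 745, 13.6 and 423 CPM, and whether muscle tissue contributed was not tested. Pdk1, the classical HIF1A target of the family, stood at 103, 116 and 82.4 CPM in EMT6-P and 90.0, 142 and 138 CPM in EMT6-PTR tumors (log2 fold change 0.30, SE 0.22). Pdk3 ran only from 34.9 to 40.1 CPM over the 6 tumors.

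Among the oxygen sensing genes, Hif1a, whose product is regulated mainly at the protein level, stood at 163, 215 and 166 CPM in EMT6-P and at 308, 230 and 148 CPM in EMT6-PTR tumors. The groups overlapped, since replicate 3 was the lowest of all 6 tumors (log2 fold change 0.34, SE 0.28, adjusted p = 0.633 in edgeR's test), and the log2 fold change was 0.06 without replicate 1 and 0.57, at an unadjusted p under 0.05, without replicate 3. The prolyl hydroxylase genes are themselves induced by HIF1A. Egln1 ran from 162 to 226 CPM over the 6 tumors. Egln3 stood at 60.6, 122 and 58.4 CPM in EMT6-P and at 69.7, 130 and 47.3 CPM in EMT6-PTR tumors, and replicate 2 was the highest in both groups.

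The other hypoxia-induced members were Car9 (carbonic anhydrase that acidifies the cell surroundings), Bnip3 (mitophagy receptor), Ndrg1 (stress-response protein), Adm (vasodilator peptide), Ankrd37 (ankyrin-repeat protein), P4ha1 and P4ha2 (collagen prolyl hydroxylases). These 7 genes had log2 fold changes from -0.28 to 0.23, with a median of 0.09. Bnip3 stood at 214, 322 and 162 CPM in EMT6-P and at 211, 387 and 224 CPM in EMT6-PTR tumors. Ankrd37, with the largest difference of the group (log2 fold change -0.28, SE 0.31, adjusted p = 0.710 in edgeR's test), stood at 19.4, 25.4 and 14.5 CPM in EMT6-P and at 12.2, 22.6 and 14.0 CPM in EMT6-PTR tumors. For both genes replicate 2 was the highest tumor within its group. Adm had the widest spread of the group, at 70.1, 144 and 39.4 CPM in EMT6-P and 65.9, 128 and 39.8 CPM in EMT6-PTR tumors. Ndrg1 reached 1836 CPM in EMT6-PTR replicate 2 against 636 CPM in replicate 1. P4ha1 and P4ha2 also peaked in EMT6-PTR replicate 2, at 385 and 173 CPM. Car9 was the exception, with its highest EMT6-PTR value in replicate 3 at 115 CPM.

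Many members followed single tumors within each group. EMT6-P replicate 2 was the highest of the 3 EMT6-P tumors for 31 of the 42 members, where 35.3% of all genes tested had that tumor highest, and 27 members stood in the order replicate 2, 1, 3, against 19.4% of all genes. EMT6-PTR replicate 2 was the highest EMT6-PTR tumor for 24 members, against 25.3% of all genes, and replicate 3 was the lowest of the 6 tumors for 19 members, against 34.5%. The standard deviation of log2 CPM was larger among EMT6-PTR than among EMT6-P tumors for 35 members, against 82.8% of all genes. These counts describe single libraries, since the members of a library share its tissue and its depth. On the log2 scale, the median of the 7 other hypoxia-induced genes lay 0.40 above the EMT6-P mean in EMT6-P replicate 2 and 0.41 below it in replicate 3. In EMT6-PTR it lay 0.10 below in replicate 1, 0.74 above in replicate 2 and 0.46 below in replicate 3. The lower glycolysis genes had medians of -0.29, 0.16 and -0.63 in EMT6-PTR replicates 1 to 3, and the upper glycolysis genes of 0.08, 0.52 and -0.32. Replicate 3 was also the tumor with the lowest summed carcinoma and proliferation markers and the highest summed fibroblast markers, though not for Col1a1. The part of its cell composition in these values was not tested.

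**Figure D2:**
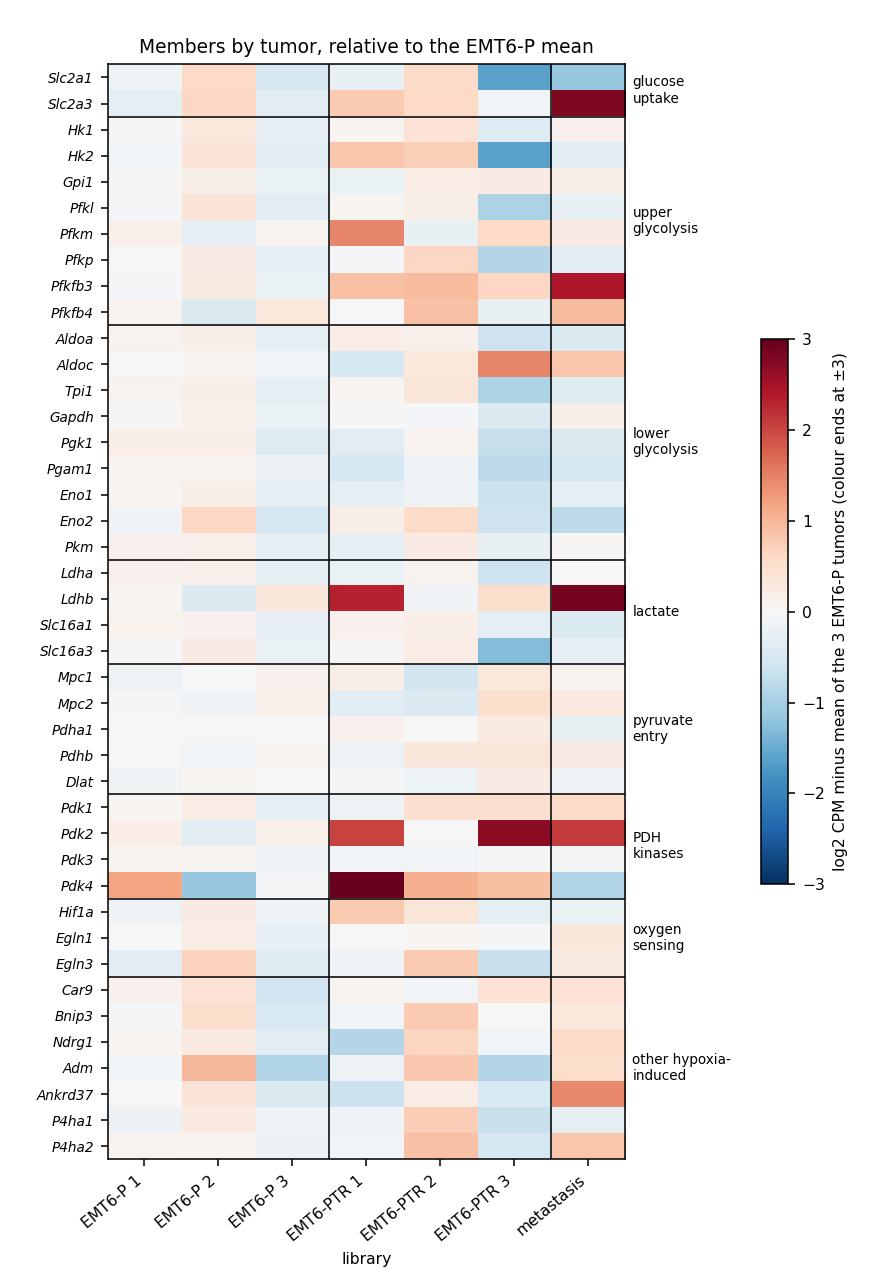
Difference in log2 CPM from the mean of the 3 EMT6-P tumors (colour, red above and blue below) for the 42 genes (rows, by role) in each of the 7 libraries (columns). Hypoxia-induced and glycolytic genes are mostly red in EMT6-P replicate 2 and EMT6-PTR replicate 2 and mostly blue in EMT6-P replicate 3 and EMT6-PTR replicate 3, while Pfkfb3 is red in all 3 EMT6-PTR tumors.

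Counted against the full range of the 3 EMT6-P tumors, EMT6-PTR replicate 2 exceeded it for 19 members (45.2%, against 34.3% of all genes) and lay below it for 3 (7.14%, against 37.7%). EMT6-PTR replicate 3 exceeded it for 13 (31.0%, against 39.9%) and lay below it for 20 (47.6%, against 42.6%). Replicate 1 exceeded it for 11 (26.2%, against 31.9%) and lay below it for 8, against 33.1%. Replicate 2 departed most from the shares of all genes, through its few members below the range.

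**Figure D3:**
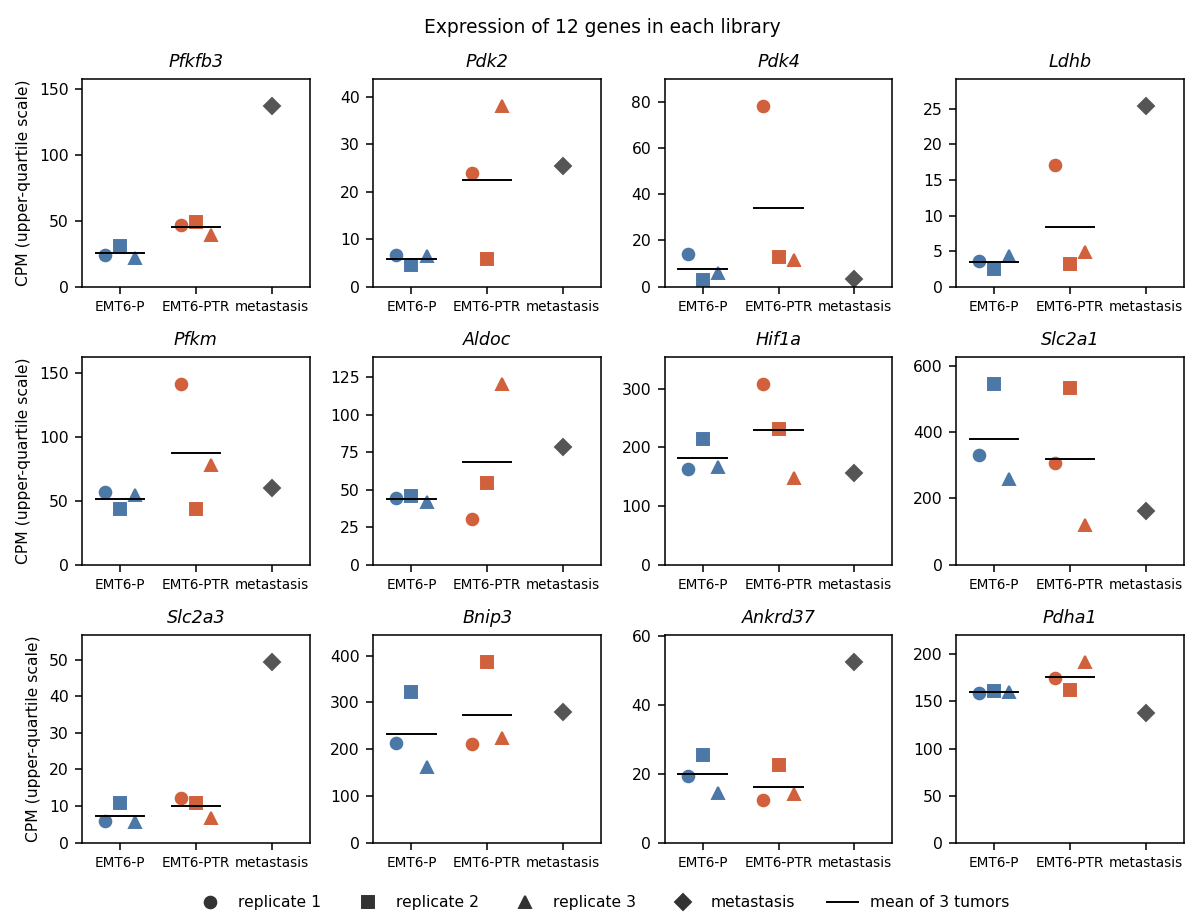
CPM on the upper-quartile scale (vertical axes, each starting at 0) for 12 genes in 3 EMT6-P tumors (blue), 3 EMT6-PTR tumors (orange) and 1 metastasis (grey), with the marker shape giving the replicate and the bar the mean of 3 tumors. The groups are apart for Pfkfb3 and narrowly for Pdha1, a single EMT6-PTR tumor carries the higher mean of Ldhb and Aldoc, and EMT6-PTR replicate 1 stands far above the other tumors for Pdk4.

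Isozymes among the 42 genes were compared within each library on levels per kilobase of exon, as shares with no test. The shares leave out expressed relatives that are not members: Hk3 stood at 1.10 to 4.90 CPM per kilobase in the primary tumors, Eno3, the muscle-type enolase, at 49.5 to 172 and Eno1b, a near-identical copy of Eno1, at 381 to 671 CPM per kilobase. Hk2 made up 38.2% ± 1.5 (SD, n = 3) of the sum of Hk1 and Hk2 in EMT6-P tumors, and 51.2%, 43.2% and 21.2% in EMT6-PTR replicates 1 to 3. Replicates 1 and 2 thus lay above all EMT6-P tumors and replicate 3 below them. Pfkm made up 14.9% to 26.1% of phosphofructokinase in EMT6-P tumors, and 41.3%, 15.4% and 43.3% in EMT6-PTR replicates 1 to 3. Pdk4 made up 40.1% of the kinase level in EMT6-PTR replicate 1 and 2.40% to 11.4% in the other 5 tumors, while Pdk2 made up 25.2% in EMT6-PTR replicate 3 and 4.43% to 7.33% in EMT6-P tumors. Pdk3 had a share of 44.7% to 48.7% in EMT6-P and 25.4% to 37.3% in EMT6-PTR tumors, without overlap between the groups. Its own level differed little (log2 fold change -0.06), so the share moved with the other kinases in the sum. Aldoc made up 10.7% of aldolase in EMT6-PTR replicate 3 against 1.68% to 3.17% in the other 5 tumors, and Slc16a3 made up 32.7% of the 2 lactate transporters there against 47.4% to 51.9%. Ldha made up at least 97.2% of the sum of Ldha and Ldhb, and Eno1 at least 94.3% of the sum of Eno1 and Eno2, in every primary tumor.

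**Figure D4:**
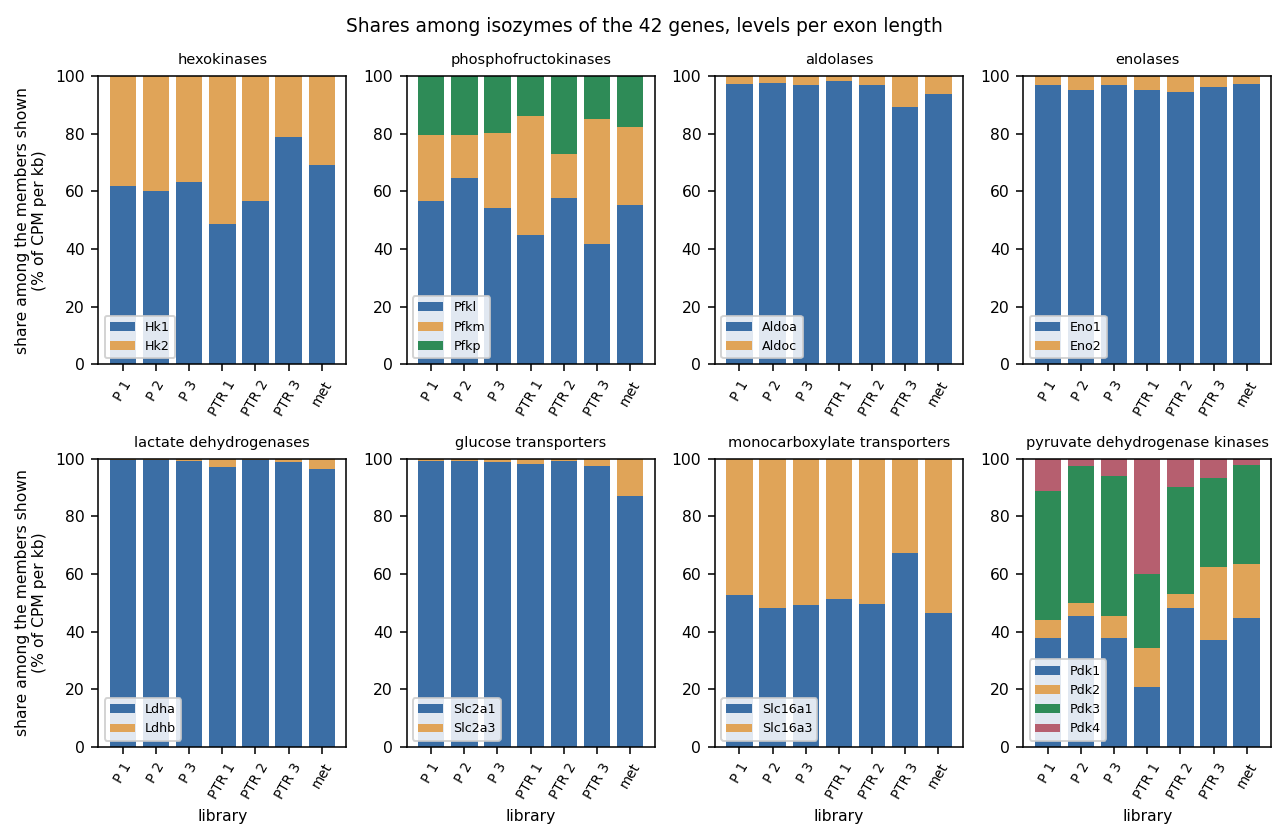
Share of each isozyme in the summed level of the members shown in its panel, other family genes such as Hk3, Eno3 and Eno1b left out (percent of CPM per kilobase of exon, vertical axes from 0 to 100) in each library (horizontal axes; P for EMT6-P, PTR for EMT6-PTR, met for the metastasis). The EMT6-P bars of most families resemble each other, though their Pdk4 share ran from 2.40% to 11.4%. EMT6-PTR replicate 1 has the largest Pdk4 share. EMT6-PTR replicate 3 has the largest Aldoc and Pdk2 shares and the smallest Hk2 and Slc16a3 shares.

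Some members share reads with near-identical gene copies, and their levels are uncertain to that extent. Of 9 members with annotated transcripts of other genes at 95% identity or more over at least 50% of their length, 6 had copies holding over 5% of the joint reads in some library. Copies took 48.7% to 52.3% of the reads of Eno1 and its copies, 21.1% to 26.8% for Gapdh, 17.7% to 25.0% for Pgk1 and 8.27% to 9.75% for Gpi1. With the copies added, the ratio of mean CPM in EMT6-PTR over EMT6-P was 0.828 in place of 0.79 for Eno1, 0.921 in place of 0.886 for Gapdh and 0.866 in place of 0.818 for Pgk1. A second gene identifier with the symbol Aldoa held 0.195 to 0.838 CPM and was kept apart.

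Genes of neighbouring pathways outside the 42 were read from lists also drawn up with earlier results of these data known. None of these genes had an adjusted p under 0.05. Of 28 tested further hypoxia-induced genes, 22 had a log2 fold change above 0 (median 0.18), with an unadjusted p under 0.05 for 1 higher and 1 lower (5.84% and 5.57% of all genes). The groups did not overlap for 1 higher and 3 lower genes (9.52% and 11.8% of all genes), the other 2 lower genes being Angptl4 and Car12. The smallest p-values belonged to Pfkfb2 (0.56, SE 0.19), a relative of Pfkfb3, and Mif (-0.50, SE 0.20), a cytokine gene, each with groups that did not overlap, followed by the histone demethylase gene Kdm3a (0.41, SE 0.19). Their levels also followed single tumors: replicate 2 was the highest EMT6-P tumor for 22 of the 28 and the highest EMT6-PTR tumor for 16, and EMT6-PTR replicate 3 was the lowest of 6 for 15. Of 13 tested further oxygen sensing genes, 2 were higher and 2 lower at an unadjusted p under 0.05 (5.84% and 5.57% of all genes). Their groups did not overlap for 4 higher and 2 lower genes (9.52% and 11.8% of all genes), among them Vhl, Hif1an and Ep300, all higher. Those with the smallest p were Elob and Eloc, which encode the elongin subunits of the VHL ubiquitin ligase, and Epas1, which encodes HIF2A. Elob stood at 193, 178 and 188 CPM in EMT6-P and at 121, 110 and 126 CPM in EMT6-PTR tumors (log2 fold change -0.64, SE 0.13, unadjusted p = 0.0017, adjusted p = 0.421 in edgeR's test). Eloc (-0.44, SE 0.15) and Epas1 (0.46, SE 0.15) also had groups that did not overlap, and both had an adjusted p of 0.427 in edgeR's test.

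Of 5 tested regulators and remaining subunits of pyruvate dehydrogenase, Pdpr had the smallest p. It encodes the regulatory subunit of the phosphatase that reverses the action of the kinases, and stood at 3.99, 5.10 and 4.18 CPM in EMT6-P and at 10.4, 9.83 and 12.9 CPM in EMT6-PTR tumors. The groups did not overlap (log2 fold change 1.32, SE 0.23, unadjusted p = 0.00081, adjusted p = 0.421 in edgeR's test). The catalytic subunit gene Pdp1 (0.79, SE 0.37) and the lipoamide dehydrogenase gene Dld (0.24, SE 0.12) followed. Of the 5, the groups did not overlap for 2 higher and 0 lower genes (9.52% and 11.8% of all genes). In the pentose phosphate pathway, which branches from glycolysis at its first intermediate, 8 of 8 genes were tested and 5 had a log2 fold change below 0. Pgls (-0.59, SE 0.16, unadjusted p = 0.0086), G6pdx (-0.27, SE 0.13) and Taldo1 (-0.31, SE 0.15) were the 3 whose groups did not overlap, all lower in EMT6-PTR, against 11.8% of all genes. Of 16 tricarboxylic acid cycle genes, 12 lay below 0 (median -0.17), where 7457 of all 15645 genes tested did. They were led by Mdh2 (-0.52, SE 0.17, unadjusted p = 0.020 in edgeR's test) and Fh1 (-0.34, SE 0.15), while Ogdh lay above (0.30, SE 0.14). Of the 16, 1 was lower at an unadjusted p under 0.05, against 5.57% of all genes. Of the 16, the groups did not overlap for 1 higher and 4 lower genes (9.52% and 11.8% of all genes). Among 13 tested further glycolytic isozymes and side enzymes the smallest p-values were those of Eno1b (-0.33, SE 0.20), Bsg (0.33, SE 0.23), a chaperone of lactate transporters, and Pgm1 (0.23, SE 0.20). For gluconeogenesis, 3 genes were tested and Pcx (0.70, SE 0.32), Pck2 (-0.12, SE 0.27) and G6pc3 (0.29, SE 0.22) all had an adjusted p of 0.457 or more in edgeR's test.

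The metastasis is a single library, so its values carry no replicate check and no test. Of the 42 members, 4 lay at least 2-fold above the mean log2 CPM of the EMT6-PTR tumors and above all 6 primary tumors, and 0 lay at least 2-fold below that mean and below all 6. Over the 15645 genes tested in the primary tumors these shares were 10.4% and 6.63%. Over 18619 genes, which include those expressed mainly in the metastasis, they were 16.2% and 6.14%. Pfkfb3 stood at 137 CPM, 1.61 above the EMT6-PTR mean and 2.43 above the EMT6-P mean on the log2 scale. Slc2a3 stood at 49.4 CPM, 2.35 above the EMT6-PTR mean, and made up 12.8% of the 2 glucose transporters per kilobase. Ldhb stood at 25.4 CPM (1.97 above) and Ankrd37 at 52.4 CPM (1.73 above). These 4 genes were thus higher than in any primary tumor. So were 6 of 6 lung epithelium, 6 of 6 neutrophil, 5 of 5 erythroid and 5 of 6 endothelium markers. The same held for 5 of 6 T cell, 4 of 6 carcinoma epithelium and 1 of 6 adipocyte markers. It held for 0 of the skeletal muscle, macrophage, fibroblast and proliferation markers. The part of lung, blood or other cells in the values of the 4 genes was not tested. Slc2a1, in contrast, stood at 162 CPM, below all primary tumors other than EMT6-PTR replicate 3, and Pdk4 at 3.22 CPM, inside the range of the EMT6-P tumors. Slc16a1 (227 CPM), Pdha1 (138 CPM) and Eno2 (28.4 CPM) lay below all 6 primary tumors by less than 2-fold from the EMT6-PTR mean. Pfkfb4 (43.7 CPM), Gapdh (1464 CPM), Pdk1 (149 CPM) and Egln1 (244 CPM) lay above all 6 by less than 2-fold from that mean. Among the glycolytic enzymes of the lower steps the median lay 0.36 below the EMT6-P mean, and for the 7 other hypoxia-induced genes it lay 0.53 above. Epas1, which is abundant in endothelium and lung, stood at 641 CPM against 21.1 to 34.0 CPM in the primary tumors.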

How the data were processed

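RNA was measured in 6 primary tumors (3 per group) and 1 metastasis. Per the labels and the study's methods, the authors selected polyadenylated RNA for stranded libraries, checked reads with FastQC 0.11.5, aligned them with STAR 2.6.0a to GRCm38 with GENCODE annotation, and deposited RSEM 1.3.1 estimated counts per gene without normalization. RSEM divides reads shared by near-identical genes by estimation. Depth was 20430110 to 25213472 counts per library, and at 0 counts up to 3 counts are possible, for counting error only.

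Counts were rounded, filtered with filterByExpr, scaled by upper quartile and tested over all genes with edgeR 4.0.16 in R 4.3.3 (glmQLFit, glmQLFTest, Benjamini-Hochberg adjustment, threshold 0.05). CPM values are scaled over all 7 libraries, and fold changes come from the 6 primary tumors. The SE is the log2 fold change divided by the square root of F. The labels do not state that the 3 samples of a group came from separate animals, and the study calls replicates technical where it specifies nothing else, so p-values measure the spread between these samples, which may be technical. The metastasis was described without a test, with a prior count of 2. Gene identifiers were matched to GENCODE M21 on the same assembly. Of 211 listed symbols, 209 matched directly and Ero1a through a synonym, and Mpc1l is not reported. Promoter windows came from RefSeq, and copies were found with BLAST+ 2.17.0.

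The members and all gene lists were chosen with earlier results of these data known. All 42 members are accounted for. Values in every tumor were given for members with an unadjusted p under 0.05 or without overlap of the groups, for the largest difference of each role and for Hif1a, and up to 3 genes with the smallest p were named from each pathway list. Pfkm, Hk2, Pgam1 and other members given in every tumor beyond this rule, and Epas1 in the metastasis, were chosen after their values were seen. The fits were also run on simulated counts, but no result given here rests on that run. Spread beyond counting error was far from equal: edgeR's common dispersion came to 0.246 for the resistant tumors, against 0.0266 for the parental ones. How the quasi-likelihood test behaves when groups differ this much in spread was not tested. Alternatives were TMM, DESeq2 1.42.0, limma-voom (limma 3.58.1), 2 other filters, the metastasis as an added group, a block for the replicate number, and fits without each tumor. Tables and plots used Python 3.11.15, pandas 2.3.3 and matplotlib 3.10.9.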

Additional observations from a re-analysis of the deposited data

How the results depend on the processing

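Under 13 alternatives the 42 members gave 546 log2 fold changes. For 18 members, among them Pfkfb3, Pdk2, Pdk4, Ldhb, Pfkm, Slc2a3, Hif1a, Pgam1, Pdha1, Pdhb and Ankrd37, the direction held under each of them. For 24 members 61 values changed sign, all for differences smaller than their SE or, for Aldoc, without EMT6-PTR replicate 3. DESeq2 called 1 member (Pfkfb3) and gave 4 higher members at an unadjusted p under 0.05, and limma-voom gave 1. Leaving out 1 tumor in turn, 1 to 5 members were higher and 0 to 1 lower at that p: 1 higher when EMT6-P replicate 2 or 3 was dropped, 5 when EMT6-PTR replicate 1 or 2 was dropped and 4 when EMT6-PTR replicate 3 was, and 1 lower when EMT6-PTR replicate 2 (Pgam1) or 3 (Mpc2) was. Pdk2 was not among the higher members with limma-voom or when EMT6-P replicate 2 or 3 or EMT6-PTR replicate 3 was dropped. The members at least 2-fold higher numbered 1 to 4, with 1 without EMT6-PTR replicate 1. In the metastasis, 0 to 1 members lay at least 2-fold below, with 1 without EMT6-PTR replicate 3, and 4 lay above under the alternatives run.

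Same-numbered tumors of the 2 groups had correlations of 0.26, 0.25 and 0.04 between their deviations from the group means. Pairs with unlike numbers ran from -0.29 to 0.097. The main fit used no pairing, and whether same-numbered tumors share more than a number was not tested. With the replicate block, 0 members were called, 3 were higher at an unadjusted p under 0.05 and the median log2 fold change was 0.0068. Signs changed with the replicate block for Pfkp (-0.11), Mpc1 (-0.016), Egln1 (0.0067), Egln3 (-0.0039), Ndrg1 (-0.095) and P4ha1 (-0.010). They changed with limma-voom for Hk2 (-0.0070), Pfkp (-0.096), Mpc1 (-0.011), Egln1 (0.0075), Egln3 (-0.0059), Ndrg1 (-0.094) and P4ha1 (-0.0012). Egln1 also changed with TMM scaling (0.015), DESeq2 (0.016) and at least 10 counts in every tumor (0.011). The cause was not tested.

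With 1 tumor left out, log2 fold changes ran from -0.82 to 0.15 for Slc2a1, -0.15 to 0.24 for Hk1, -0.056 to 0.75 for Hk2, -0.36 to 0.11 for Pfkl, -0.42 to 0.31 for Pfkp, -0.14 to 0.47 for Pfkfb4, -0.20 to 0.17 for Aldoa and -0.054 to 0.99 for Aldoc. They ran from -0.34 to 0.22 for Tpi1, -0.22 to 0.43 for Eno2, -0.27 to 0.013 for Pkm, -0.092 to 0.15 for Slc16a1, -0.49 to 0.12 for Slc16a3, -0.13 to 0.25 for Mpc1, -0.38 to 0.14 for Mpc2 and -0.10 to 0.11 for Dlat. They ran from -0.12 to 0.11 for Egln1, -0.45 to 0.46 for Egln3, -0.12 to 0.34 for Car9, -0.092 to 0.54 for Bnip3, -0.44 to 0.30 for Ndrg1, -0.67 to 0.50 for Adm, -0.37 to 0.36 for P4ha1 and -0.28 to 0.47 for P4ha2.

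With the longest annotated transcript as the length, 15 of 38 group means of isozyme shares moved by more than the replicate SD, as for Hk2 in EMT6-P tumors (25.1%). Counting error weighs most on Ldhb, Pdk2, Pdk4 and Slc2a3, which stood at a few CPM in the EMT6-P tumors.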
